A study of Mus musculus with 2 samples.

Results

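The genes described here are the cytochrome P450 genes of families 2, 3 and 4 in mouse liver. They were taken as every gene of the deposited matrices whose symbol is Cyp followed by 2, 3 or 4, a subfamily letter and a number, leaving out Cyp2e1 and Cyp2f2. That rule gave 70 of 32285 genes, with 46 in family 2, 7 in family 3 and 17 in family 4. Single-cell RNA sequencing with 10x Genomics 3′ chemistry was available for 2 libraries, 1 from WT mice and 1 from N-LKO mice, both fed for 16 weeks on a diet that the sample titles call HFD and the treatment labels call WD. N-LKO mice lack NgBR, the product of Nus1 and a subunit of the cis-prenyltransferase that makes dolichol, in cells that express albumin-Cre, and WT mice are labelled CTRL. The WT library was made from liver and the N-LKO library from liver plus tumor, with hepatocytes and nonparenchymal cells isolated apart and recombined, so tumor cells and genotype cannot be told apart. The study states that its experiments used male mice only. With 1 library per group no test between groups was possible. UMIs are 3′ counts of 1 per molecule, so levels of different genes were compared without scaling by length. Values are UMIs summed over the cells of a class and given per 1000000 UMIs of that class (CPM), and the 95% intervals are exact and cover counting error only.

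Cytochrome P450 enzymes are heme proteins of the endoplasmic reticulum that insert 1 oxygen atom into their substrates with electrons from P450 oxidoreductase. Families 2 and 3 oxidize drugs, steroids, bile acids and polyunsaturated fatty acids. Family 4 hydroxylates fatty acids and eicosanoids, chiefly at their terminal carbon. In liver many of these genes are most active in the hepatocytes around the central vein, and their transcription answers to nuclear receptors such as CAR, PXR and PPARα and to the sex-specific pattern of growth hormone.

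The libraries held 85522287 (WT) and 87575064 (N-LKO) UMIs, and 18434 and 19851 cells were kept. Hepatocyte-like cells, in which all 8 hepatocyte markers were detected, numbered 9947 in WT (16790057 UMIs) and 2079 in N-LKO (4604676 UMIs). Nus1, the targeted gene, was at 73.0 CPM in the WT and 38.2 CPM in the N-LKO hepatocyte-like cells. The libraries fell largely into different clusters, which were built without any P450 gene of the rule. The main WT cluster held 8372 WT and 68 N-LKO cells, and the main N-LKO cluster held 1986 N-LKO and 91 WT cells and was led by the acute-phase and stress genes Saa2, Saa1, Mt1 and Lcn2. A further 2111 N-LKO cells, rich in the nuclear RNA Malat1, formed a cluster that did not carry enough hepatocyte markers to be named and is given separately. The 48 markers of other liver cells summed to 701 CPM in the WT and 714 CPM in the N-LKO hepatocyte-like cells, none at 0, which is 80.7% and 38.9% of their level in each library's barcodes under 500 UMIs. The 8 hepatocyte markers were at 128% (WT) and 209% (N-LKO) of their level in those barcodes. By both lists the WT class thus stood less apart from those barcodes than the N-LKO class. Median mitochondrial content of hepatocyte-like cells was 20.8% (WT) and 15.9% (N-LKO), and Malat1 was at 9124 and 4531 CPM. The part of depth, free RNA and mitochondrial content in the values below was not tested beyond the alternatives given. Of the hepatocyte-like cells, 263 WT and 65 N-LKO cells carried a barcode that occurs in both libraries, and leaving them out kept the number of genes at least 2-fold lower at 6 and higher at 4.

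In hepatocyte-like cells, 36 of the 70 genes reached 5 CPM in at least 1 library, a further 24 had fewer UMIs and 10 had none. The 36 comprised 24 genes of family 2, 4 of family 3 and 8 of family 4, and most lie in tandem arrays. The rule found 15 genes on chromosome 19 (Cyp2c), 15 on chromosome 4 (Cyp2j, Cyp4a, Cyp4b1 and Cyp4x1), 13 on chromosome 7 (chiefly Cyp2a and Cyp2b), 8 on each of chromosomes 5, 15 and 17 (Cyp3a with Cyp2w1, Cyp2d and Cyp4f), 2 on chromosome 8 and 1 on chromosome 3. Since 3′ reads are assigned to single genes, the last 500 bases of each longest transcript were compared with all other genes, and 22 of 70 genes shared more than 10% of their 50-base words with another gene. These included Cyp2c37, Cyp2c50 and Cyp2c54, which shared 30.4%, 27.5% and 27.1% among themselves, Cyp2a4 with 44.3%, largely with Cyp2a5, and Cyp2c67 and Cyp2c68 with 51.2% each. How the authors' counting split such reads makes the levels of these genes less certain than those of Cyp2c29, Cyp2c70 and Cyp2u1, which shared 0%.

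The 70 genes together made up 4002 CPM of the WT and 3794 CPM of the N-LKO hepatocyte-like cells, a ratio of 0.948 (95% interval 0.932 to 0.964). The summed ratio was further below 1 with free RNA subtracted and under a 10% mitochondrial limit (values in the closing section). The size of the pool thus depended on the processing. Among the 36 genes over 5 CPM, 6 were at least 2-fold lower in the N-LKO library, beside 3.43% of 9925 genes of all kinds, and 4 were at least 2-fold higher, beside 5.45%. Of the 4, Cyp2a4, Cyp2a22 and Cyp2b9 reached 5 CPM only in the N-LKO library, where they were higher, so their count says little. Among the 32 genes over 5 CPM in both libraries, 6 were lower (2.22% of all such genes) and 1 was higher (3.14%). The median log2 ratio was -0.09 over the 36 genes and 0.04 over all genes. The 6 lower genes were Cyp2c54, Cyp2c37, Cyp2u1, Cyp2c50, Cyp2c29 and Cyp3a25, and the 4 higher genes were Cyp3a11, Cyp2b9, Cyp2a22 and Cyp2a4. With free RNA subtracted, 17 of 36 genes were lower (26.2% of all genes) and 4 higher (29.6%). Under a 10% mitochondrial limit, which left 747 WT and 235 N-LKO cells, 10 of 37 were lower (20.1%) and 3 higher (12.6%), shares closer to those of all genes.

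**Figure D1:**
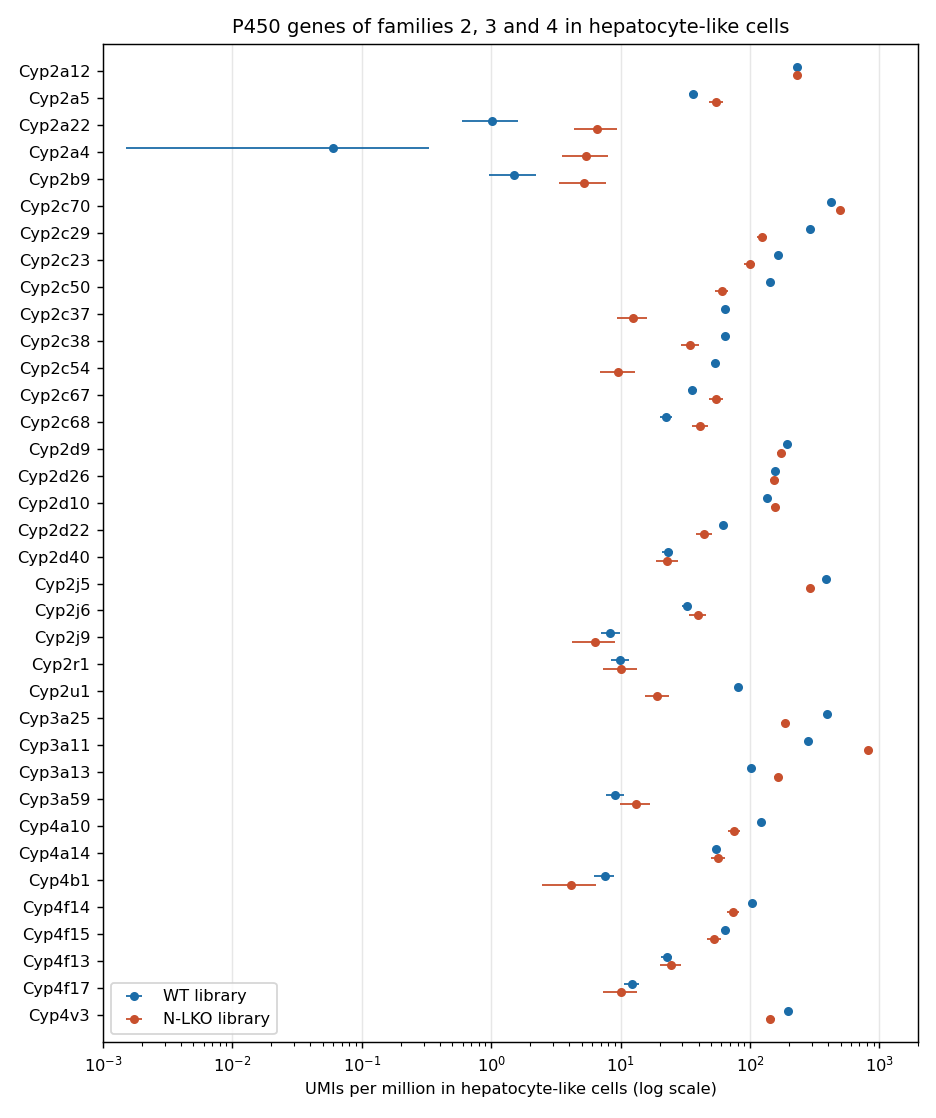
Level of each of the 36 genes in hepatocyte-like cells of the WT (blue) and N-LKO (red) library, in CPM on a log axis, grouped by subfamily. Points are 1 library each and bars are 95% counting intervals. Cyp3a11 was at 279 CPM in WT against 819 CPM in N-LKO, while Cyp2c29, Cyp2c37, Cyp2c50, Cyp2c54, Cyp2u1 and Cyp3a25 lay at least 2-fold lower in N-LKO.

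The Cyp2c genes on chromosome 19 encode epoxygenases and hydroxylases of arachidonic and linoleic acid, except Cyp2c70, which makes muricholic acids from chenodeoxycholic acid. Of 15 genes, 9 were over 5 CPM, and the 15 together summed to 1264 CPM in the WT class and 932 CPM in the N-LKO class, a ratio of 0.738 (0.714 to 0.762). Cyp2c54 was at 53.3 CPM (49.9 to 56.9) in WT against 9.56 CPM (6.94 to 12.8) in N-LKO, for a log2 ratio of -2.46. Cyp2c37 was at 64.3 CPM in WT against 12.4 CPM in N-LKO, for a log2 ratio of -2.37 (-2.79 to -1.99). These neighbors in the array had the 2 lowest ratios of the 36 genes. Cyp2c50, between Cyp2c54 and Cyp2c70, was at 141 CPM in WT against 60.4 CPM in N-LKO, and Cyp2c29, the most abundant of the 4 in WT, was at 289 and 124 CPM, both with a log2 ratio of -1.22. Cyp2c29, Cyp2c37 and Cyp2c54 stayed at least 2-fold lower under all 13 alternative settings tried, and Cyp2c50 under 11 of the 13.

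Other Cyp2c genes did not share that difference. Cyp2c70, which ranked 1 among the 70 genes in WT, was at 425 CPM in WT against 492 CPM in N-LKO, for a log2 ratio of 0.21 (0.14 to 0.28). Cyp2c67 was at 35.7 CPM in WT against 54.5 CPM in N-LKO, and Cyp2c68 at 22.3 and 41.0 CPM, with log2 ratios of 0.61 and 0.88. The ratio of Cyp2c70 was -0.59 with free RNA subtracted, and that of Cyp2c67 was -0.54 under the 10% mitochondrial limit. Cyp2c38 and the epoxygenase Cyp2c23 lay in between, at log2 ratios of -0.89 and -0.73, and that of Cyp2c38 was 0.56 with the unnamed cluster counted in. Cyp2c39, Cyp2c40, Cyp2c55 and Cyp2c69 were under 5 CPM in both libraries, and Cyp2c65 and Cyp2c66 had no UMI in these cells.

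Promoter sequence was read for 57 of the 70 genes from RefSeq (GRCm38.p6) as the 250 bases before each start site. The promoters of Cyp2c37 and Cyp2c50 are shown because both genes were over 2-fold lower in N-LKO and stand next to each other but for Cyp2c54. They were 86.0% identical, and capitals mark the 35 bases of each that have no identical partner in the alignment. Cyp2c37 is at chr19:39992174-39992423 and Cyp2c50 at chr19:40089429-40089678, both on the plus strand.
Cyp2c37: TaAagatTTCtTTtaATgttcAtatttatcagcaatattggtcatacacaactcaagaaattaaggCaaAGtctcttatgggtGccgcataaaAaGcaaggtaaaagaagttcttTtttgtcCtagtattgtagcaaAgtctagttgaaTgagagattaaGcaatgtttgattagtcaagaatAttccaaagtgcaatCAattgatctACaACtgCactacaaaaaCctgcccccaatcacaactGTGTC
Cyp2c50: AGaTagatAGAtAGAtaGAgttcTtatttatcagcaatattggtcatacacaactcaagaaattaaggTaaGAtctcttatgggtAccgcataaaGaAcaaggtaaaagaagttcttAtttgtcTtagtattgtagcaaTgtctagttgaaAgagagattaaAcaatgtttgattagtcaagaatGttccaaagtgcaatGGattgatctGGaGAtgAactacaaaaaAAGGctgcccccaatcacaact
The Cyp2c37 promoter was 60.0% identical to those of Cyp2c29 and Cyp2c38, 64.4% to Cyp2c67, 59.6% to Cyp2c68 and 53.2% to Cyp2c70. Of these, Cyp2c29 and Cyp2c38 had a ratio of N-LKO over WT below 1. It was 56% identical to the promoter of Cyp3a11, a gene of another family, so identities near that level say little. The promoter of Cyp2c29 is shown as that of the most abundant of the 4 lower Cyp2c genes. It lies at chr19:39286835-39287084 on the plus strand, inside the span that GENCODE gives the gene, and capitals mark the half-site AGGTCA and then the TATA box TATAAA.
Cyp2c29: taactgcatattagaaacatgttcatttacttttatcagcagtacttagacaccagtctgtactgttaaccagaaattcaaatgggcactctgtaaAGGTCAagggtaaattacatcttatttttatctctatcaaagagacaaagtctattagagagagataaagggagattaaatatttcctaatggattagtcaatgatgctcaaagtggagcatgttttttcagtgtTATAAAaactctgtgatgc

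The Cyp3a genes on chromosome 5 include the chief drug-oxidizing P450s of mouse liver and differed in both directions. Cyp3a11, the classical PXR target, was at 279 CPM (271 to 287) in WT against 819 CPM (793 to 846) in N-LKO, for a log2 ratio of 1.55 (1.49 to 1.61). It made up 6.98% of the UMIs of the 70 genes in WT and 21.6% in N-LKO, and went from rank 5 to rank 1. Its log2 ratio ranged from 0.998 to 1.93 over the alternatives and was 2-fold under 12 of the 13, the exception being the unnamed Malat1-rich cluster counted in. Cyp3a25, a close relative, was at 391 CPM in WT against 185 CPM in N-LKO, for a log2 ratio of -1.08 (-1.18 to -0.98). That ratio was -0.06 with the unnamed cluster counted in and -0.90 at a minimum of 500 UMIs per cell. Cyp3a13 was at 102 CPM in WT against 165 CPM in N-LKO, and the low Cyp3a59 at 9.11 and 13.0 CPM, and with free RNA subtracted the log2 ratio of Cyp3a13 was -0.28. No UMI of Cyp3a16 or Cyp3a44, which are female-predominant genes, was found in hepatocyte-like cells of either library, where the intervals reached up to 0.220 CPM (WT) and 0.801 CPM (N-LKO).

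The Cyp3a11 promoter is shown because this gene had the largest difference in CPM between the libraries. The motifs searched on both strands were the HNF4 core CAAAGTCCA, the FOXA core TGTTTAC, the nuclear receptor half-site AGGTCA, the STAT5 site TTCNNNGAA, the HNF1 core and the TATA box TATAAA, none of which contains another. Cyp3a11 lies on the minus strand with its promoter at chr5:145879855-145880104, of which 110 bases fall inside the gene as GENCODE places its start. Of the 57 windows, 40 had their next 30 bases in a GENCODE transcript. Capitals mark, from 5′ to 3′, the TATA box letters, the FOXA core, the half-site and the HNF4 core.
Cyp3a11: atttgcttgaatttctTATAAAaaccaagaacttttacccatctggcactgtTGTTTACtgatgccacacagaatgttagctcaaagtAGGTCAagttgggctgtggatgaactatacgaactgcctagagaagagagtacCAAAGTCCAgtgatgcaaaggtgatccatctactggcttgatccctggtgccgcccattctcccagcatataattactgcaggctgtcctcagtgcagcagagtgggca
CAAAGTCCA was present in 8 of the 57 promoters and in 0.384% of all 32851 promoters of the same length, TGTTTAC in 6 of 57 and 3.17%, AGGTCA in 15 of 57 and 14.0%, TTCNNNGAA in 4 of 57 and 7.02%, and TATAAA in 21 of 57 and 12.4%. The HNF1 core was in 0 of the 57 and in 3 promoters overall. A match is a run of letters and not a site of binding. Besides Cyp3a11 and Cyp3a16, the genes with CAAAGTCCA were Cyp2c40, Cyp2c65, Cyp2c67, Cyp2c68, Cyp2c69 and Cyp2c70.

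Among the single-gene subfamilies, Cyp2u1, which hydroxylates long-chain fatty acids, was at 80.6 CPM (76.3 to 85.0) in WT against 19.1 CPM (15.3 to 23.5) in N-LKO, for a log2 ratio of -2.07. Under the 10% mitochondrial limit its log2 ratio was -0.39. Cyp2r1, the vitamin D 25-hydroxylase, was at 9.89 CPM in WT against 9.99 CPM in N-LKO, with an interval of the log2 ratio from -0.49 to 0.49. Cyp4v3, a fatty acid ω-hydroxylase, was at 197 CPM in WT against 144 CPM in N-LKO, for a log2 ratio of -0.45.

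Of the 5 Cyp2a and Cyp2b genes over 5 CPM, on chromosome 7, 3 reached 5 CPM only in the N-LKO library, where they were higher. Their direction therefore says little, and only Cyp2a12 and Cyp2a5 were over 5 CPM in both libraries. Cyp2a12, a steroid and bile acid 7α-hydroxylase, was at 231 CPM in WT against 232 CPM in N-LKO, with an interval of the log2 ratio from -0.09 to 0.10, and its ratio stayed above 1 under 6 of the 13 alternatives. Cyp2a5, the coumarin 7-hydroxylase, was at 36.5 CPM in WT against 54.3 CPM in N-LKO, for a log2 ratio of 0.57 (0.35 to 0.79). The 3 genes at least 2-fold higher were all sparse and were under 5 CPM in WT. Cyp2a4, a female-predominant testosterone 15α-hydroxylase that shares much of its 3′ end with Cyp2a5, had 1 UMI in WT and 25 UMIs in N-LKO, and the log2 ratio had an interval from 3.90 to 11.87. Cyp2a22 had 17 and 30 UMIs, or 1.01 and 6.52 CPM, and the female-predominant Cyp2b9 had 25 and 24 UMIs, or 1.49 and 5.21 CPM. Under the 10% mitochondrial limit the log2 ratios of Cyp2a22 and Cyp2b9 were -1.03 and -2.79. Cyp2b10, the classical CAR target, had 9 UMIs in WT and 5 in N-LKO and was under 5 CPM in both.

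None of the 5 Cyp2d and 3 Cyp2j genes over 5 CPM was 2-fold different, beside 3.43% of all genes lower and 5.45% higher. With so few genes that count says little. All 8 Cyp2d genes summed to 571 CPM in WT against 554 CPM in N-LKO. Cyp2d9, a male-predominant testosterone 16α-hydroxylase, was at 194 CPM in WT against 173 CPM in N-LKO, and Cyp2d26 at 156 and 154 CPM. Cyp2j5, an arachidonic acid epoxygenase, was at 389 CPM in WT against 289 CPM in N-LKO, for a log2 ratio of -0.43 (-0.51 to -0.34).

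Family 4 contained no gene at least 2-fold different among 8 over 5 CPM, and 6 of the 8 had a ratio below 1, as did 46.1% of all genes. Since only 3.43% of all genes were at least 2-fold lower and 5.45% higher, the lack of such a gene says little. Cyp4a10, a PPARα target and fatty acid ω-hydroxylase, was at 123 CPM in WT against 74.7 CPM in N-LKO, for a log2 ratio of -0.71 (-0.88 to -0.55). Its paralog Cyp4a14 was at 55.0 CPM in WT against 56.7 CPM in N-LKO, so these PPARα targets of the same enzyme class did not differ alike. Cyp4f14, which inactivates leukotriene B4, was at 104 CPM in WT against 73.6 CPM in N-LKO, for a log2 ratio of -0.50, and Cyp4f15 at 63.6 and 52.6 CPM. Under the 10% mitochondrial limit the log2 ratios of Cyp4a10, Cyp4f14 and Cyp4v3 were 0.22, 0.50 and 0.17.

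Clusters were compared in pairs because each library dominated its own clusters. Between the main WT and the main N-LKO cluster, 7 of 36 genes were at least 2-fold lower in N-LKO (3.22% of all genes) and 4 were higher (6.42%). Between the Malat1-rich WT cluster of 315 cells and the unnamed Malat1-rich N-LKO cluster, 9 of 39 genes were lower (11.4%) and 5 higher (17.6%). These Malat1-rich clusters are not matched cells, and the unnamed one had only 1 hepatocyte marker raised. Malat1 was at 35126.5 CPM in the WT and 19791.4 CPM in the N-LKO cluster, and Alb at 8241 and 4197 CPM. Their median mitochondrial content was 7.03% and 14.4%. Ratios of this pair therefore cannot be read as differences between like hepatocytes. Of the 35 genes over 5 CPM in both pairs, Cyp2c29, Cyp2c37, Cyp2c50, Cyp2c54 and Cyp2u1 were at least 2-fold lower in each (1.75% of all genes), and the sparse Cyp2a4 and Cyp2a22 at least 2-fold higher in each (3.49%). Ratios of opposite sign were found for 7 of the 35 genes and for 42.6% of all genes.

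Cyp2c29 was at 292 CPM in the main and 540 CPM in the Malat1-rich WT cluster, and at 119 and 166 CPM in the corresponding N-LKO clusters. Cyp2u1 was at 88.6 and 34.3 CPM in these WT clusters and at 19.1 and 3.67 CPM in N-LKO. Cyp3a11 was at 285 and 182 CPM in the WT clusters and at 815 and 263 CPM in the N-LKO clusters. Its log2 ratio was thus 1.51 in the main pair and 0.53 in the Malat1-rich pair. Cyp3a25 was far more abundant in the Malat1-rich cells of both libraries, at 1035 CPM in WT against 591 CPM in N-LKO, beside 390 and 184 CPM in the main clusters. Cyp2d9 was at 201 and 171 CPM in the main WT and N-LKO clusters and at 233 and 74.4 CPM in the Malat1-rich ones, log2 ratios of -0.23 and -1.65. Cyp2c23 likewise had log2 ratios of -0.82 and -2.19.

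Few cells allowed the libraries to be compared inside 1 cluster. In the main N-LKO cluster, the 91 WT cells had Cyp2c37 at 42.1 CPM against 10.1 CPM in the 1986 N-LKO cells, a log2 ratio of -2.13 (-3.16 to -0.76). The other genes 2-fold lower in all hepatocyte-like cells differed less in this cluster. Cyp2c54 had a log2 ratio of -1.41, Cyp2c50 of -0.74, Cyp2u1 of -0.59 and Cyp2c29 of -0.48. Cyp3a25 had the opposite sign, at 0.46. In the main WT cluster, the 68 N-LKO cells had Cyp2c37 at 93.6 CPM (11 UMIs) against 68.1 CPM in the 8372 WT cells, and the interval of the log2 ratio went from -0.55 to 1.30. Cyp2c29 in that cluster was at 332 CPM in N-LKO (39 UMIs) and 292 CPM in WT, an interval from -0.31 to 0.64. Both intervals included a ratio of 1, and neither reached a 2-fold lower level in N-LKO. They cover counting error only, in the few N-LKO cells that clustered with WT hepatocytes. Cyp3a11 was higher in N-LKO inside both clusters, at 996 against 285 CPM in the main WT cluster and at 815 against 515 CPM in the main N-LKO cluster. Cyp2u1 was at 25.5 CPM in the 68 N-LKO cells on 3 UMIs, with a log2 interval from -4.07 to -0.24 against the WT cells there, and at 26.3 CPM on 5 UMIs in the 91 WT cells of the main N-LKO cluster. Within the main WT cluster 2 of 35 genes were at least 2-fold lower (9.96% of all genes) and 8 higher (25.5%), and within the main N-LKO cluster 8 of 41 were lower (20.3%) and 4 higher (10.9%).

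Barcodes under 500 UMIs, taken here to hold mostly free RNA, were compared in the same way. Here 6 of 35 genes were lower (16.8% of all genes) and 5 higher (18.6%). Cyp2c37 was at 46.7 CPM in WT against 12.0 CPM in N-LKO, Cyp2u1 at 36.3 and 9.84 CPM, and Cyp3a11 at 235 and 550 CPM. Cyp3a25 differed less there than in hepatocyte-like cells, at 172 CPM in WT against 155 CPM in N-LKO.

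**Figure D2:**
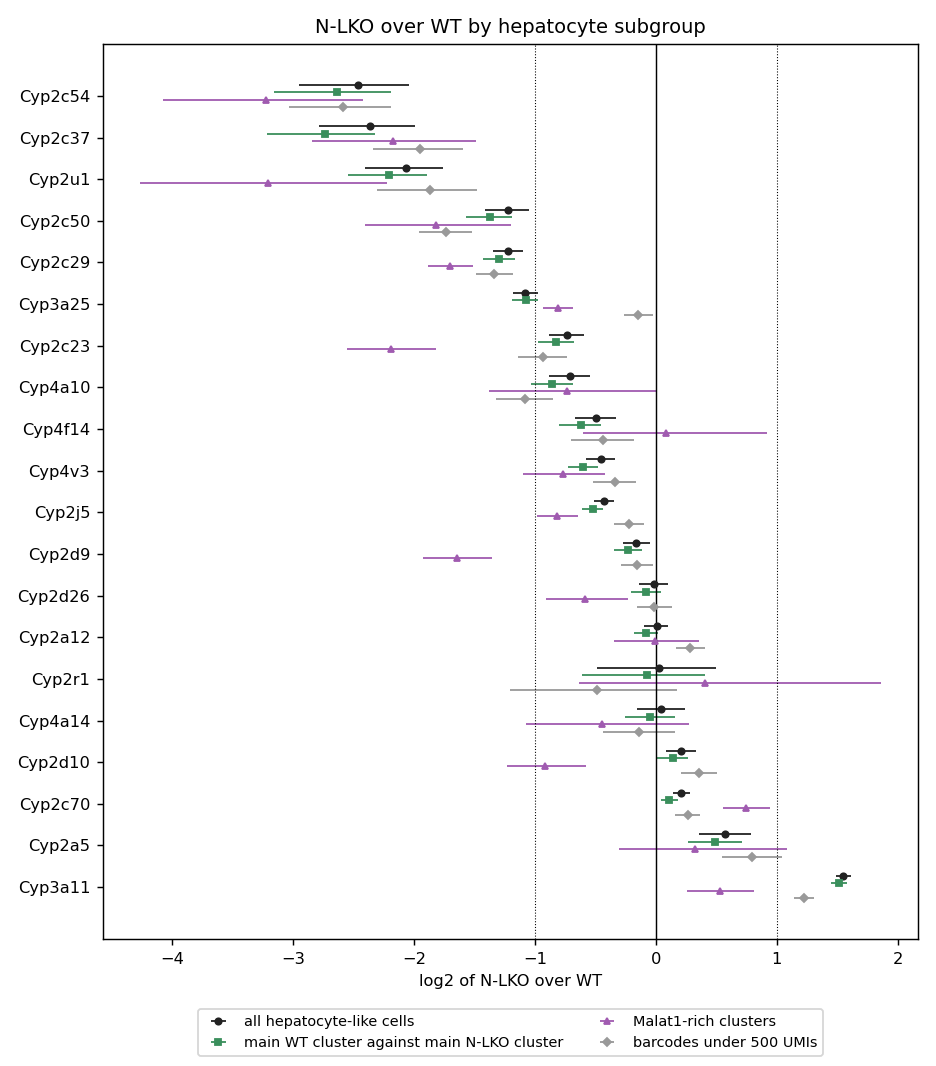
Log2 ratio of N-LKO over WT for 20 named genes in all hepatocyte-like cells (black), the main cluster pair (green), the Malat1-rich pair (purple) and barcodes under 500 UMIs (gray), with 95% counting intervals and dotted lines at 2-fold. Cyp2c54, Cyp2c37, Cyp2u1, Cyp2c50 and Cyp2c29 lay below the lower line in all 4 comparisons, and Cyp3a11 lay above 0 in all 4.

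To place the genes along the liver lobule, hepatocyte-like cells of each library were ordered by pericentral over pericentral plus periportal UMIs, with no P450 gene in either list, after thinning each cell to 1000 UMIs, and were cut in 3 groups of about equal size within each library. The cuts lay at scores of 0.286 and 0.444 in WT and at 0.338 and 0.6 in N-LKO, and genes of the lists themselves differed between the libraries (Glul had a log2 ratio of -1.50 and Hal of -1.41), so groups of the same name are not matched positions. Of the cells, 9778 WT and 1880 N-LKO cells had at least 5 such UMIs, and 3701 and 469 of them lay within 0.05 of a cut. As a check, Cyp2e1 was at 399 CPM in the periportal and 1431 CPM in the pericentral group in WT, and at 174 and 1000 CPM in N-LKO. Cyp2f2, the other gene left out of the rule, was at 908 and 693 CPM in WT and at 508 and 173 CPM in N-LKO. Its log2 ratio of the pericentral over the periportal group was -0.39 in WT and -1.56 in N-LKO. By this gene the WT groups differed little toward the periportal side, which limits the periportal count below. In WT, 12 of the 36 genes were at least 2-fold higher in the pericentral group, beside 1.35% of all genes, and 0 were 2-fold higher in the periportal group, beside 0.594%. In N-LKO, 15 were higher in the pericentral group (4.06%) and 4 in the periportal group (4.22%). The 12 were Cyp2c29, Cyp2c37, Cyp2c38, Cyp2c50, Cyp2c54, Cyp2c67, Cyp3a11, Cyp4a10, Cyp4a14 and Cyp2a5 with the sparse Cyp2a22 and Cyp2b9. The 4 periportal genes were Cyp4f15, Cyp2a4, Cyp2j9 and Cyp4b1, and the interval left out 1 for Cyp4f15 alone.

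Cyp2c29 was at 143 CPM in the periportal and 529 CPM in the pericentral group of WT, and at 30.4 and 296 CPM in N-LKO. The log2 ratio of N-LKO over WT was -2.22 in the periportal and -0.84 in the pericentral group. Cyp2c37 was at 29.0 and 120 CPM in the WT groups and at 3.53 and 30.3 CPM in N-LKO. Cyp3a11 was at 143 and 492 CPM in WT and at 357 and 1504 CPM in N-LKO. The log2 ratio of the pericentral over the periportal group was 1.78 (1.67 to 1.89) in WT and 2.07 (1.93 to 2.22) in N-LKO, and the difference between the libraries was not tested. With both libraries cut at the same scores, 0.286 and 0.455, Cyp2c29 was at 143 and 539 CPM in WT and at 23.3 and 221 CPM in N-LKO, and Cyp3a11 at 143 and 503 CPM in WT and at 300 and 1234 CPM in N-LKO.

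The fatty acid ω-hydroxylases Cyp4a10 and Cyp4a14 were also pericentral. Cyp4a10 was at 80.5 and 193 CPM in the periportal and pericentral groups of WT and at 34.6 and 134 CPM in N-LKO. Cyp4a14 was at 35.7 and 85.0 CPM in WT and at 31.8 and 100.3 CPM in N-LKO. Cyp2a5 was at 15.8 and 70.6 CPM in WT and at 18.4 and 116 CPM in N-LKO. By contrast Cyp3a25, at 427 and 375 CPM in WT against 201 and 199 CPM in N-LKO, and Cyp2u1, at 82.1 and 69.8 CPM in WT against 19.1 and 14.8 CPM in N-LKO, were lower in N-LKO along the whole axis. Cyp4f14 was level in WT, at 105 and 103 CPM, and was at 83.3 and 54.4 CPM in N-LKO.

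Between libraries, 10 of 35 genes were at least 2-fold lower in N-LKO in the periportal group (5.31% of all genes), 8 of 37 in the middle group (4.67%) and 5 of 37 in the pericentral group (5.54%). Those at least 2-fold higher were 2 (6.21%), 6 (6.79%) and 5 (7.76%). The median log2 ratio over the 35, 37 and 37 genes compared was -0.32, -0.07 and 0.02, beside 0.02, 0.03 and 0.05 over all genes. The difference between the groups was not tested.

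**Figure D3:**
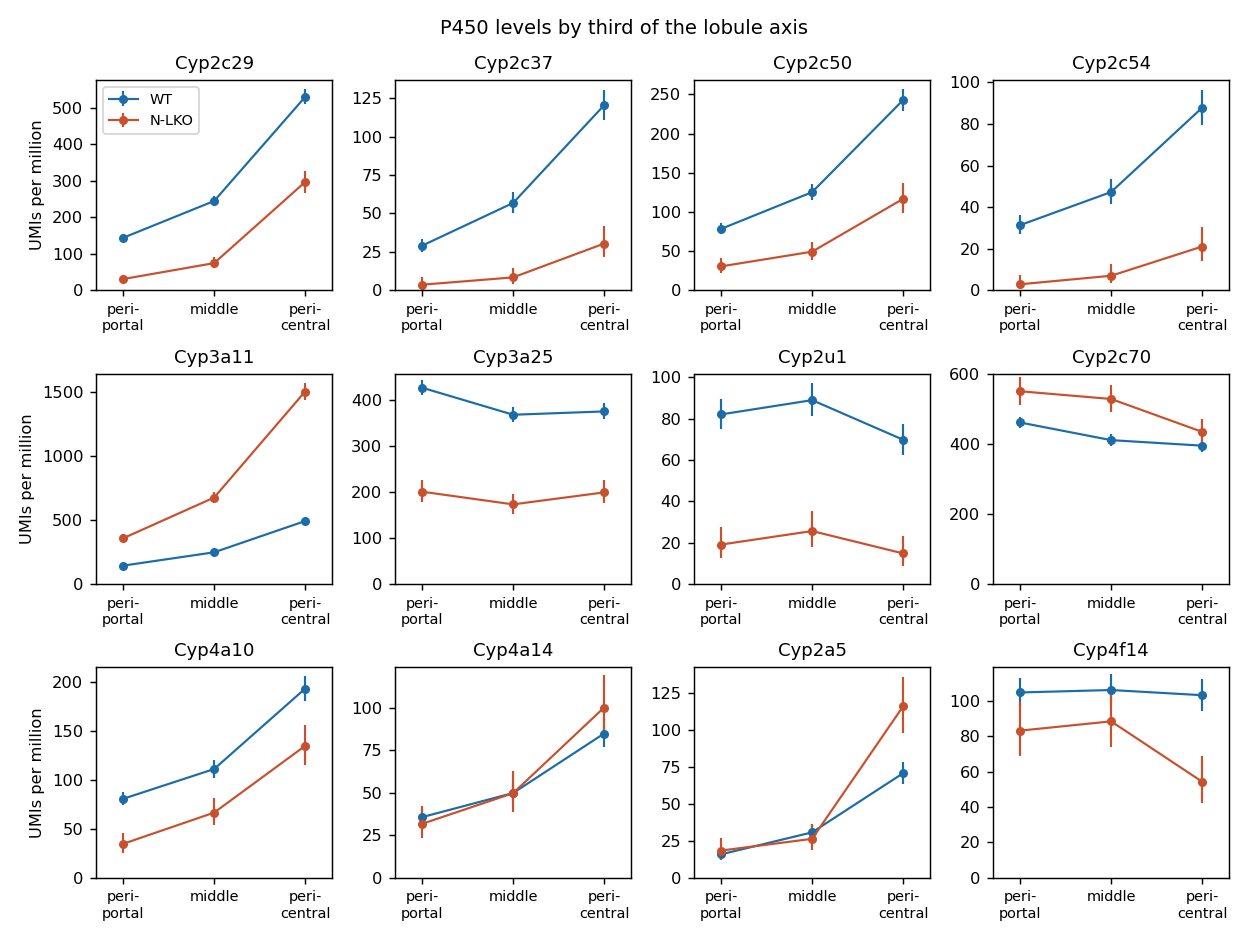
Level of 12 genes in CPM (linear axis from 0) in the periportal, middle and pericentral groups of hepatocyte-like cells of the WT (blue) and N-LKO (red) library, with 95% counting intervals. Cyp2c29, Cyp2c37, Cyp2c50 and Cyp2c54 are higher toward the pericentral group in both libraries and lower in N-LKO in each group, Cyp3a11 lies higher in N-LKO in all 3 groups, and Cyp3a25 and Cyp2u1 lie lower in all 3.

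In the other cell classes with at least 100 cells, these genes were present at a lower level than in hepatocyte-like cells. Summed over the 70 genes, the classes held 852 to 1729 CPM in WT against 930 to 1883 CPM in N-LKO. Scaled by hepatocyte tracer genes, the free RNA in barcodes under 500 UMIs accounted for 24.1% to 57.9% of the UMIs of the WT classes and for 30.5% to 56.2% of the N-LKO classes. By that scale 36 genes were above the expected level in at least 1 class, but the list was made up largely of hepatocyte genes such as Cyp2j5 and Cyp3a25. A stricter criterion, added after the data were seen, asked for a level whose lower bound exceeded every hepatocyte source of the same library. These sources were the barcodes under 500 UMIs and each hepatocyte-like or unnamed Malat1-rich cluster with enough cells, and both criteria asked for at least 20 UMIs in the class. That left 4 genes, Cyp4b1, Cyp4f18, Cyp4f16 and Cyp2j6. In the WT library this held for 1 of 32 genes in endothelial cells (21.4% of all genes), 1 of 33 in hepatic stellate cells (28.8%), 2 of 32 in macrophages (27.1%), 1 of 32 in B cells (8.39%) and 0 in neutrophils (2.67%), cholangiocytes (5.39%), T/NK cells (15.4%), dendritic cells (9.16%) and plasmacytoid dendritic cells (7.86%). In the N-LKO library it held for 1 of 38 in endothelial cells (20.5%), 1 of 31 in stellate cells (17.5%), 2 of 30 in macrophages (27.8%), 2 of 36 in B cells (15.6%), 2 of 31 in neutrophils (15.5%), 1 of 29 in cholangiocytes (13.8%) and 0 in T/NK (13.7%), dendritic (17.9%), plasmacytoid dendritic (13.1%), plasma (5.48%) and erythroid cells (2.91%). With a minimum of 2000 UMIs 0 genes and with the 10% mitochondrial limit only Cyp4b1 met the criterion, and Cyp2j6 also missed it at a minimum of 500 UMIs and with no mitochondrial limit.

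Cyp4b1, which is known from lung and bioactivates furans such as 4-ipomeanol, was highest in endothelial cells of both libraries. There it was at 187 CPM (170 to 205) in WT against 85.6 CPM (76.1 to 96.0) in N-LKO, for a log2 ratio of -1.13 (-1.34 to -0.91). In hepatic stellate cells it was at 75.2 CPM in WT against 32.8 CPM in N-LKO, for a log2 ratio of -1.18 (-1.77 to -0.66). No hepatocyte source exceeded 8.21 CPM in WT or 17.0 CPM in N-LKO, and in barcodes under 500 UMIs Cyp4b1 was higher in N-LKO (12.6 against 8.21 CPM). In these classes 7.39% (endothelial) and 8.19% (stellate) of all genes were at least 2-fold lower in N-LKO. B cells also lay above the hepatocyte sources, at 48.8 CPM in WT against 33.1 CPM in N-LKO, with a log2 interval from -1.38 to 0.30, beside 11.5% of all genes lower and 14.2% higher in that class.

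Cyp4f18, a leukotriene B4 hydroxylase of mouse neutrophils, was at 19.0 CPM (14.7 to 24.1) in WT against 45.1 CPM in N-LKO macrophages. Its log2 ratio there was 1.24 (0.87 to 1.65). In that class 3.94% of all genes were at least 2-fold higher. Cyp4f18 was also higher in N-LKO in barcodes under 500 UMIs, at 7.87 CPM against 1.35 CPM, and the part of free RNA in the macrophage value was not tested. Neutrophils had 35.7 CPM on 6 UMIs in WT and 61.1 CPM on 67 UMIs in N-LKO, with a log2 interval from -0.42 to 2.27. Cyp4f18 was not over 5 CPM in hepatocyte-like cells of either library. Cyp4f16, on chromosome 17, was at 12.1 CPM in WT against 17.0 CPM in N-LKO macrophages, with a log2 interval from -0.02 to 1.02. Cyp2j6 exceeded the hepatocyte sources in N-LKO cholangiocytes, at 60.5 CPM against at most 40.6 CPM, and was at 29.2 CPM on 9 UMIs in WT cholangiocytes.

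**Figure D4:**
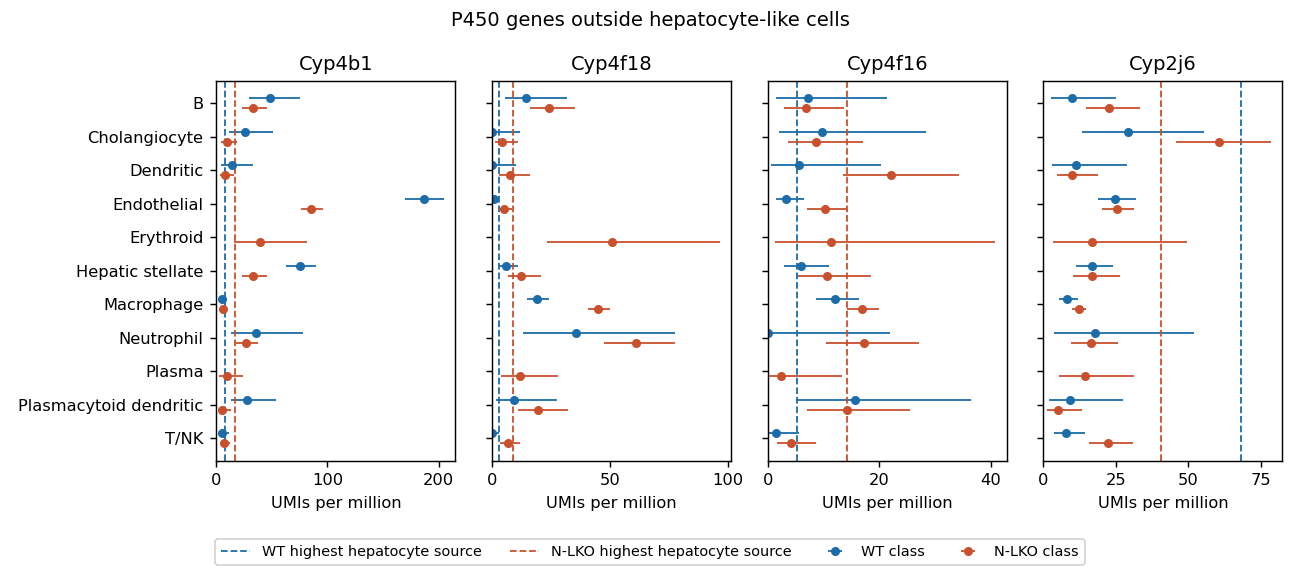
Level of Cyp4b1, Cyp4f18, Cyp4f16 and Cyp2j6 in CPM in each cell class of at least 100 cells of the WT (blue) and N-LKO (red) library, with 95% counting intervals. Dashed lines mark the highest hepatocyte source of each library. Cyp4b1 meets the stricter criterion in endothelial, stellate and B cells of both libraries and in N-LKO neutrophils, and Cyp4f18 in macrophages of both libraries and in N-LKO neutrophils and B cells. WT neutrophils, with 6 UMIs of Cyp4f18, did not meet it.

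Partners and regulators of the enzymes were taken from lists of known function. Of 8 electron donors and partners none was 2-fold different, and Por, the oxidoreductase that feeds electrons to all of these enzymes, was at 63.6 CPM in WT against 121 CPM in N-LKO, for a log2 ratio of 0.93 (0.78 to 1.08). Of 10 heme genes over 5 CPM only Alas1, which sets the rate of heme synthesis, was 2-fold different, at 52.2 CPM in WT against 117 CPM in N-LKO. Of 15 regulators over 5 CPM only Cebpb was 2-fold different, at 111 and 224 CPM. Beside these 3 counts, 3.43% of all genes were at least 2-fold lower and 5.45% higher, so in lists this short the counts say little. The receptor genes Nr1i2 (PXR) and Nr1i3 (CAR) were at 48.8 and 31.3 CPM in WT and at 41.7 and 19.3 CPM in N-LKO, so Nr1i3 had a log2 ratio of -0.69 (-1.03 to -0.37). Ppara was at 253 and 225 CPM.

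Of 7 other CAR and PXR targets 1 was at least 2-fold higher (Gadd45b, 1.07 and 5.21 CPM, over 5 CPM in N-LKO alone) and none lower. Among the 6 P450 targets over 5 CPM, Cyp2c29, Cyp2c37, Cyp2c50 and Cyp2c54, which lie in 1 array, were lower and Cyp3a11 was higher. Of all genes, 3.43% were at least 2-fold lower and 5.45% higher. Of 9 other PPARα targets Vnn1 and Fgf21, the latter over 5 CPM in N-LKO alone, were at least 2-fold higher and none was lower. The 9 targets summed to 3822 CPM in WT against 2729 CPM in N-LKO. Among 12 other P450 genes over 5 CPM, Cyp2f2, Cyp8b1, Cyp4a12a and Cyp4a12b were at least 2-fold lower. Cyp17a1, over 5 CPM in N-LKO alone, was higher. Cyp4a12a, a male-predominant family 4 gene whose symbol the rule does not match, was at 118 CPM in WT against 41.9 CPM in N-LKO, for a log2 ratio of -1.49 (-1.72 to -1.28).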

How the data were processed

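Cells were isolated by collagenase perfusion and sequenced with 10x Genomics 3′ chemistry. The authors deposited raw UMI counts per gene and barcode for each library. The file headers name Cell Ranger 7.1.0, and the submitters' processing notes list Cell Ranger, Seurat and mm9. Of 32285 gene identifiers 99.8% occur in GENCODE M21 (GRCm38), which was used for positions and 3′ ends, so positions here belong to that annotation and not to the authors' alignment. The promoter sequences are those of RefSeq.

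From the deposited counts, barcodes with at least 1000 UMIs, at least 400 genes and at most 30% mitochondrial UMIs were kept. Barcodes with a Scrublet doublet score (in scanpy) over 0.25 were removed (8.55% in WT, 10.6% in N-LKO). Cells were clustered with scanpy 1.11.5 and leidenalg 0.10.2 on 2000 variable genes without the P450 genes described, 30 principal components and a resolution of 0.3, and clusters were named from 15 marker lists. Median depth was 1401 UMIs per cell in WT and 1454 in N-LKO. UMIs were summed per class and library and expressed per 1000000 UMIs (CPM). Log2 ratios add 0.5 UMI to each count. Intervals are exact Poisson (levels) or conditional binomial (ratios) at 95% and cover counting error only. A gene was compared where it reached 5 CPM in at least 1 library and was called at a 2-fold ratio. Each group being 1 library, no p-values were computed. Ratios and intervals were tested on counts simulated with counting error alone. Such counts hold no variation between mice or libraries, so the test does not cover it.

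Genes were named as the 10 with the highest WT level, the 5 highest and 5 lowest ratios whose interval leaves out 1, those above free RNA in another class, and a list of enzymes of known function. The genes and lists were chosen with earlier results of these data known. Alternatives changed the UMI minimum, mitochondrial limit, doublet removal, variable genes, free RNA, scaling, filters and clusters.
Genes of the rule with no UMI in any barcode were counted but not compared.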

Additional observations from a re-analysis of the deposited data

Results flagged for a closer look

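Cyp2d10, a Cyp2d gene that shares 21.7% of its last 500 bases with other genes in 50-base words, had ratios of opposite sign in the cluster pairs. Its log2 ratio of N-LKO over WT was 0.14 between the main WT and main N-LKO clusters, where it was at 141 and 155 CPM, and -0.91 between the Malat1-rich clusters, where it was at 152 and 81.0 CPM. Neither counting interval included 0, and the difference between the pairs was not tested. The N-LKO side of the Malat1-rich pair is the unnamed cluster, so that pair does not compare matched hepatocytes.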

How the results depend on the processing

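With free RNA subtracted, 17 genes were at least 2-fold lower, the median log2 ratio was -0.77 and the summed CPM ratio 0.579, where all genes had a median of -0.22. With a mitochondrial limit of 10%, 10 genes were lower, the median over all genes was -0.17, the summed ratio was 0.833, 7 genes lay above free RNA in other classes and the log2 ratios of Cyp2b9 and Cyp2a22 turned to -2.79 and -1.03. With the unnamed Malat1-rich N-LKO cluster counted in, an alternative chosen after seeing the data, 10 genes were higher, the median was 0.30 (0.40 over all genes) and the summed ratio 0.931. The summed ratio was 1.02 at a minimum of 500 UMIs, 0.930 at 2000 UMIs, 0.923 relative to the median of all genes, 0.905 outside mitochondrial genes and 0.914 without clusters rich or poor in Malat1. The count of higher genes was 16 without a filter and 1 at 20 CPM. The count above free RNA was 7 at 2000 UMIs and 4 above every hepatocyte source. The cause of these changes was not tested. Of the other values for the counts, medians and sums, 56 stayed within the limits set. Of the 36 single genes, 14 kept the sign of their log2 ratio under all 13 alternatives and 22 changed it under at least 1, in 45 of 468 values. Among the 10 genes with a 2-fold ratio, only Cyp2b9 and Cyp2a22 changed sign.

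No paired analysis was possible because each group is 1 library with replicate number 1, and leaving out a replicate was not possible for the same reason. Depth limits the sparse genes most: Cyp2a4, Cyp2a22 and Cyp2b9 rest on 1 to 30 UMIs per library, and the 68 N-LKO cells of the main WT cluster on 117496 UMIs in all.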
